A study of Homo sapiens with 12 samples.

Results

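The 7 genes described here encode the FOS and JUN subunits of the transcription factor AP-1: FOS, FOSB, FOSL1 (FRA-1) and FOSL2 (FRA-2) of the FOS family, and JUN, JUNB and JUND of the JUN family. They were taken by name from RNA-seq tables of 57879 Ensembl genes, and all 7 were found. The cells were A549, a human lung adenocarcinoma line, made into stable lines with lentiviral constructs. The labels give 4 groups: sh-TAF15 cells carried an shRNA against TAF15, sh-NC cells the matching control shRNA construct, TIF1γ cells a TIF1γ (TRIM33) expression construct, and vector cells the matching empty construct. The sh-TAF15 and TIF1γ groups are labelled as TAF15 knockdown and TIF1γ over-expression, and the sh-NC and vector groups as WT. Values were at hand for 2 sh-TAF15, 1 sh-NC, 2 TIF1γ and 3 vector libraries, 8 of the 12 samples in the labels, and the other 4 are not analysed here. The series describes its samples as biological replicates. Whether each line was 1 clone or a pool is not given in the sources used here, so the p values measure the spread between cultures and not between independently made lines.

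AP-1 is a dimer of basic leucine zipper proteins that binds DNA elements of the TGA-TCA type. JUN proteins pair with each other or with FOS proteins, whereas FOS proteins need a JUN or related partner to bind DNA. FOS, FOSB, JUN and JUNB are classical immediate early genes that growth factors and stress switch on for a short time, while FOSL1 and FOSL2 are typical of sustained ERK signalling in carcinoma cells. FOSL1 itself is a known AP-1 target, and JUND is widely expressed in resting cells.

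Promoter windows are shown for the 3 genes in which a motif was found, because these motifs are the sites through which AP-1 and related factors are known to bind. RefSeq windows on GRCh38.p14, from 250 bases before to 50 bases after the gene start, were matched for 6 of the 7 genes (all but FOSL1). They were searched on both strands for TGANTCA (the AP-1 consensus), TGACGTCA (the cyclic AMP response element), TGACNTCA (which includes TGACGTCA) and the CArG box bound by SRF. Capitals mark the matches, and each line reads 5′ to 3′ along the gene's own strand.
FOSL2: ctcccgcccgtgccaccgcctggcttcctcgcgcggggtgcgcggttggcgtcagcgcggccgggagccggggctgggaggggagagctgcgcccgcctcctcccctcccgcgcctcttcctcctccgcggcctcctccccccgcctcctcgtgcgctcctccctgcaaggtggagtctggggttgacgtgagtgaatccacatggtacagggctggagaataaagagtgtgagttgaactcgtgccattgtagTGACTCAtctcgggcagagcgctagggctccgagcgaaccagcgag
JUN: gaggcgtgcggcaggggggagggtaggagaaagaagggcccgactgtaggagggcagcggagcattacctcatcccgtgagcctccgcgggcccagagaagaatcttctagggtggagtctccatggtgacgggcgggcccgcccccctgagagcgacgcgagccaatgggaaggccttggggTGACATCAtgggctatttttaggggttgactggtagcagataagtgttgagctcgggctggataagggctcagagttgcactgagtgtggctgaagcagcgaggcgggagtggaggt
JUND: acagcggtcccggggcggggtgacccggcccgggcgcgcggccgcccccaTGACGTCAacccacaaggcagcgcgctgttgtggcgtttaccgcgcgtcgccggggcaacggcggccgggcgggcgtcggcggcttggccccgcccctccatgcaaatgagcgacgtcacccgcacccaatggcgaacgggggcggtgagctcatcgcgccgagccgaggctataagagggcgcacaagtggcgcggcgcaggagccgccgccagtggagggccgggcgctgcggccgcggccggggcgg
The FOSL2 window (chr2:28392608-28392907, plus strand) holds TGACTCA from base 5 after the start. The JUN window (chr1:58783998-58784297, minus strand) holds TGACATCA from base −67, and the JUND window (chr19:18281573-18281872, minus strand) holds TGACGTCA from base −200. Of 35116 windows of the same length, 7.71% hold TGANTCA, 1.85% TGACGTCA, 7.72% TGACNTCA and 1.29% a CArG box. In the FOS, FOSB and JUNB windows no exact match was found. Near matches and sequence outside the windows were not searched, so sites there are not excluded.

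The deposited values are FPKM, fragment counts divided by transcript length and by sequencing depth, which allow levels to be compared between genes. Between 13800000 and 17700000 fragments per library were estimated from low values of genes with 1 annotated transcript, taken as 1 fragment. Only values within a preset window entered, which limits the range of the estimate, so these numbers are rough. All 8 libraries expressed the simple epithelial keratin KRT7 at 1516 to 3746 FPKM, and the 9 markers of the line were all detected. KRT8 and KRT18 were listed at 0 in both TIF1γ libraries beside 1129 to 5747 FPKM in the other 6. KRT19 stood at 0.603 to 0.775 FPKM in sh-TAF15, 0.243 in sh-NC, 61.5 to 61.7 in TIF1γ and 26.9 to 41.6 in vector, and the aldo-keto reductase AKR1B10 at 326 to 467, 191, 2049.8 to 2666 and 2129.8 to 3129 FPKM in the same order of groups. Summed FPKM of the 7 fibroblast markers was 5.98 to 6.05 in sh-TAF15, 4.31 in sh-NC, 0.403 to 0.603 in TIF1γ and 0.516 to 1.65 in vector, with DCN at 0 throughout. Leukocyte markers summed to 34.7 to 34.8, 26.7, 62.0 to 87.2 and 36.9 to 57.6 FPKM, nearly all from CD14 and CD68, with PTPRC at most 0.023 and CD3E at 0. The 3 matched endothelial markers summed to at most 0.298. CDKN2A, deleted in A549, was at 0 in 6 libraries, 0.061 in TIF1γ replicate 3 and 1.895 in sh-TAF15 replicate 3. The part of these differences in the results below was not tested. In these bulk samples, fewer cells of a type and less RNA per cell cannot be told apart. The targeted gene TRIM33 stood at 8.03 and 6.14 FPKM in TIF1γ libraries, against 2.23, 2.10 and 1.27 in vector (log2 fold change 1.46, SE 0.27, limma adjusted p = 0.13). The annotated identifier of TAF15 is not among the rows analysed, so its knockdown was not checked here.

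AP-1 subunit mRNA had 2 compositions, 1 in the shRNA lines and 1 in the vector and TIF1γ lines. In vector and TIF1γ libraries JUND and JUNB were the most abundant, followed by FOSL1. In sh-TAF15 and sh-NC libraries FOSL1 and FOSL2 came first, followed by JUNB and JUND. FOSL1 and FOSL2 together made up 66.3 ± 5.5% (SD, n = 2) of the summed FPKM of the 7 genes in sh-TAF15 and 71.3% in the sh-NC library, against 11.8 ± 1.39% (SD, n = 2) in TIF1γ and 18.9 ± 4.72% (SD, n = 3) in vector. The sum itself was 214 and 209 FPKM in sh-TAF15, 266 in sh-NC, 311 and 330 in TIF1γ, and 146, 173 and 221 in vector. The sums were highest in TIF1γ, and the shRNA libraries lay within the range of the 5 others. Sums, shares and the family ratios below use FPKM as deposited, with no trend against GC content removed. The part of base composition in them was not tested.

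**Figure D1:**
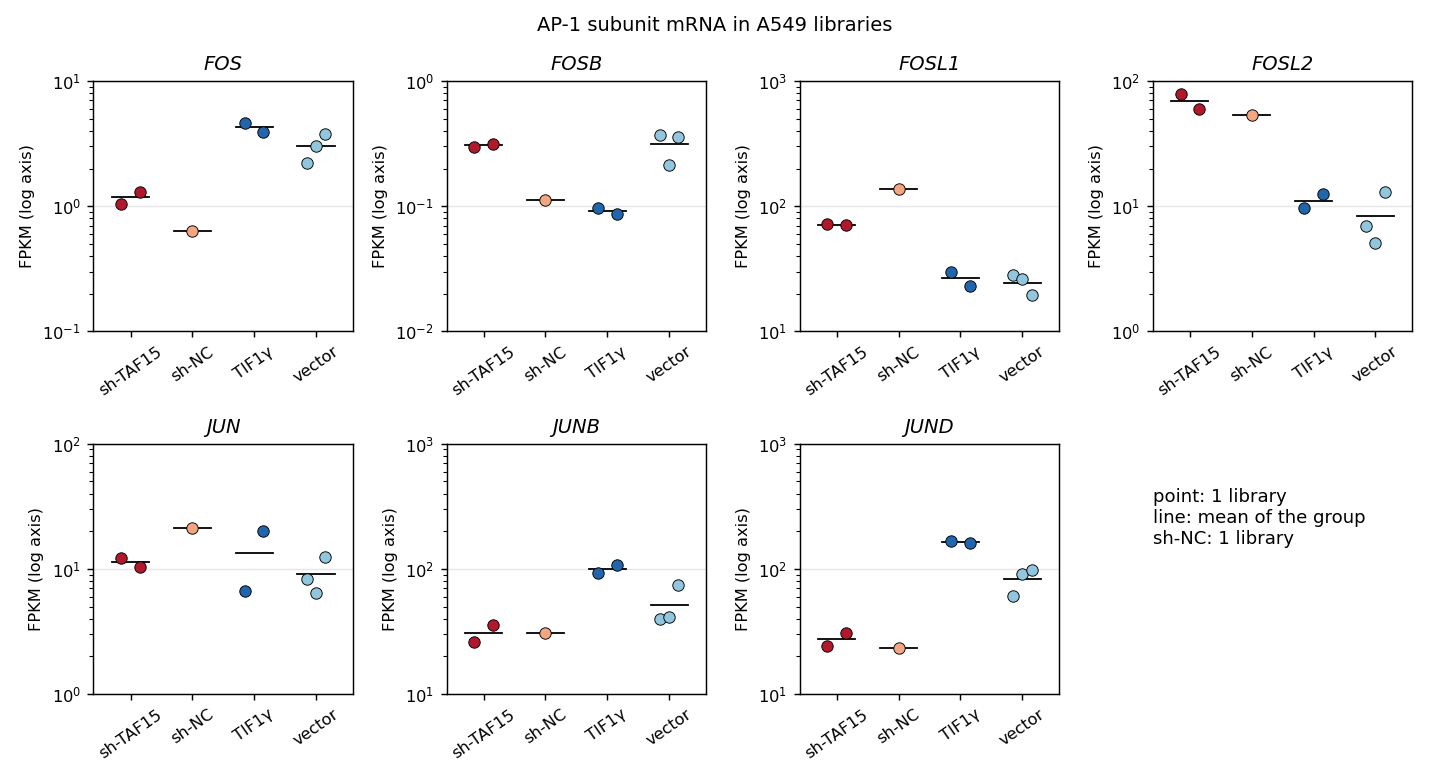
FPKM of the 7 AP-1 subunit genes on log axes in 2 sh-TAF15, 1 sh-NC, 2 TIF1γ and 3 vector libraries, with 1 point per library and a line at the group mean. FOSL1 and FOSL2 lie higher, and FOS, JUNB and JUND lower, in all 3 shRNA libraries than in all 5 others.

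**Figure D2:**
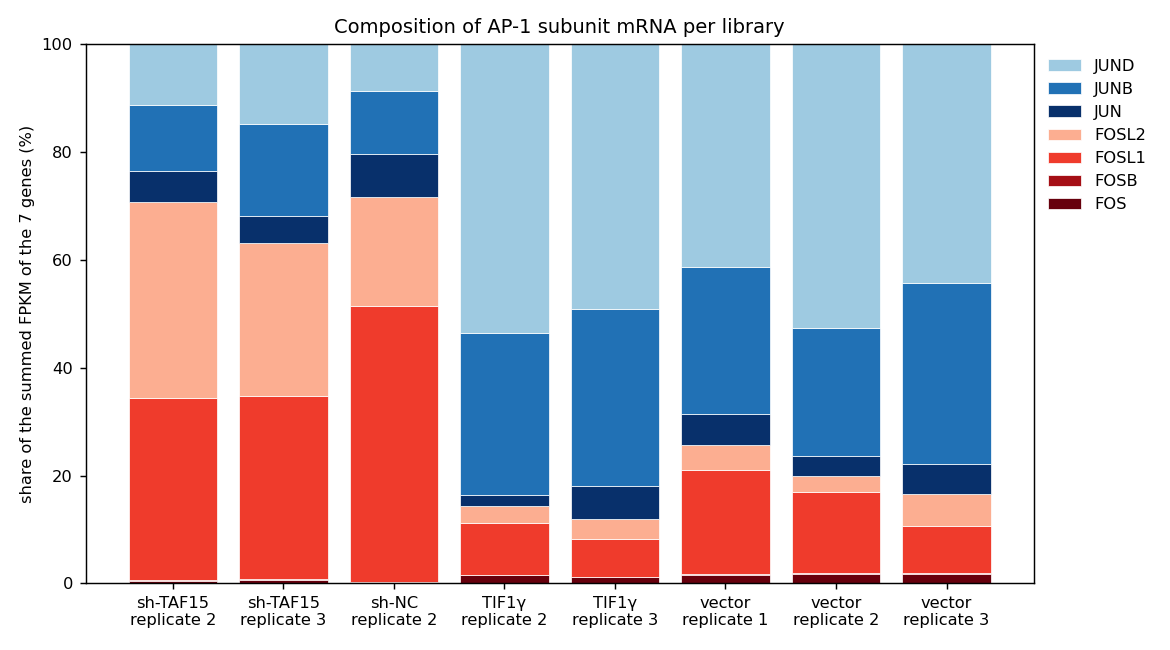
Share of each gene in the summed FPKM of the 7 AP-1 subunit genes, in percent, stacked for each of the 8 libraries. FOSL1 and FOSL2 take 62.4 to 71.3% of the bar in the shRNA libraries and 10.8 to 24.0% in the vector and TIF1γ libraries.

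Summed by family, the lines differed in the same way. FOS family mRNA summed to 152 and 132 FPKM in sh-TAF15, 190 in sh-NC, 44.4 and 39.6 in TIF1γ, and 37.6, 34.4 and 36.5 in vector. JUN family mRNA summed to 62.6 and 76.8, 75.6, 266 and 290, and 109, 138 and 185 FPKM in the same order. The ratio of FOS family to JUN family FPKM was therefore 2.42 and 1.71 in sh-TAF15 and 2.52 in sh-NC, against 0.167 and 0.137 in TIF1γ and 0.347, 0.248 and 0.198 in vector. Every shRNA library was above 1 and every other library below it.

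Within the groups, the ranges of several neighbours in the order of levels overlapped, although some kept the same order in every library. In sh-TAF15, FOSL2 at 78.2 and 59.4 FPKM overlapped FOSL1 at 72.1 and 70.7, and their order differed between the libraries. JUNB overlapped JUND there but lay above it in both libraries. In vector, JUND at 60.5, 91.2 and 97.9 overlapped JUNB at 39.7, 41.0 and 74.2 but lay above it in each library. FOSL2 overlapped JUN and lay above it only in vector replicate 3. JUND lay above JUNB and JUNB above FOSL1 in both TIF1γ libraries, as in every vector library. FOS and FOSB were the lowest members in all 8 libraries.

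The first test compared the shRNA lines (mean of the sh-TAF15 and sh-NC groups) with the vector and TIF1γ lines. Of the 6 members that passed the filter of 1 FPKM in 2 libraries, FOSL1 and FOSL2 were called higher and FOS, JUNB and JUND lower at a limma adjusted p under 0.05, and JUN was not called. Among all 13907 genes tested the shares called higher and lower were 20.4% and 21.1%, and 41.6% in all. Each of the 5 also had no overlap between the 3 shRNA libraries and the 5 others, as did 16.3% of all genes upward and 17.7% downward. Construct type, line and any difference in handling cannot be told apart in this comparison. It does not show an effect of either construct. The members were chosen with earlier results of these data known, so the count called is not an independent test.

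Among the late FOS family members, FOSL1 had 72.1 and 70.7 FPKM in the sh-TAF15 libraries and 136 in sh-NC, against 30.0 and 23.2 in TIF1γ and 28.1, 26.1 and 19.4 in vector. The sh-NC library was the highest, and the groups did not overlap. Its log2 fold change was 1.76 (SE 0.19, 95% interval 1.35 to 2.17, limma adjusted p = 1.84e-05), on the log2(FPKM + 1) scale used throughout. FOSL2 had 78.2 and 59.4 FPKM in the sh-TAF15 libraries and 53.4 in sh-NC, against 9.70 and 12.4 in TIF1γ and 6.92, 5.09 and 12.9 in vector. All 3 shRNA libraries lay above all 5 others, and the log2 fold change was 2.42 (SE 0.29, 95% interval 1.80 to 3.05, limma adjusted p = 5.85e-05), a 5.36-fold difference.

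The immediate early member FOS moved the other way. It had 1.04 and 1.31 FPKM in the sh-TAF15 libraries and 0.635 in sh-NC, against 4.62 and 3.93 in TIF1γ and 2.23, 3.02 and 3.77 in vector. The groups did not overlap, and the log2 fold change was −1.37 (SE 0.23, limma adjusted p = 5.97e-04). FOS is close to the pseudocount of 1 in the shRNA libraries, which draws this value toward 0, and with a pseudocount of 0.1 it was −2.07. FOSB, its close relative, did not reach the filter and was not tested. It had 0.299 and 0.314 FPKM in sh-TAF15, 0.112 in sh-NC, 0.0964 and 0.0865 in TIF1γ, and 0.369, 0.213 and 0.354 in vector. With its longest transcript of 3775 bases these correspond to an estimated 5 to 24 fragments per library. FOSB lies across from ERCC1, which overlaps it on the opposite strand at 108 to 237 FPKM. Whether the counting used strand is not given in the sources used here, so FOSB signal cannot be told apart from ERCC1 reads.

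In the JUN family, JUND had 24.3 and 31.0 FPKM in the sh-TAF15 libraries and 23.3 in sh-NC, against 167 and 162 in TIF1γ and 60.5, 91.2 and 97.9 in vector. The log2 fold change of −2.31 (SE 0.22, 95% interval −2.78 to −1.85, limma adjusted p = 5.19e-06) had no overlap between groups. JUNB, a partner that is a weaker activator than JUN in many settings, had 26.1 and 35.4 FPKM in the sh-TAF15 libraries and 31.0 in sh-NC, against 93.0 and 108 in TIF1γ and 39.7, 41.0 and 74.2 in vector. Its log2 fold change was −1.33 (SE 0.25, limma adjusted p = 0.0013). JUN, the strongest activator of the family, had 12.2 and 10.4 FPKM in the sh-TAF15 libraries and 21.2 in sh-NC, against 6.63 and 19.96 in TIF1γ and 8.36, 6.37 and 12.5 in vector. The groups overlapped through TIF1γ replicate 3 (log2 fold change 0.42, 95% interval −0.40 to 1.24, limma adjusted p = 0.38). Without TIF1γ replicate 3, JUN was called with a log2 fold change of 0.82 (limma adjusted p = 0.0348), and without TIF1γ replicate 2 its value was −0.013 (limma adjusted p = 0.975).

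Over protein-coding genes, fold changes between these lines fell with GC content (Spearman correlation −0.581). The longest transcripts of JUND, JUNB and FOSL1 have 69.7%, 64.9% and 60.04% GC, and those of JUN, FOSL2 and FOS 56.7%, 53.3% and 52.6%. Over 462 protein-coding genes above 65% GC the median log2 fold change between the lines was −0.70, and over 1851 genes above 60% GC it was −0.62, against 0.015 over all genes tested. With each library's trend against transcript GC and length removed, the log2 fold change was 2.43 for FOSL1, 2.54 for FOSL2, −1.09 for FOS and −1.30 for JUND, with limma adjusted p values of 0.00011, 0.000369, 0.00353 and 0.00319. For JUNB it was −0.51 (limma adjusted p = 0.193), so the JUNB call did not hold there. In that fit 30.3% of all genes were called.

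**Figure D3:**
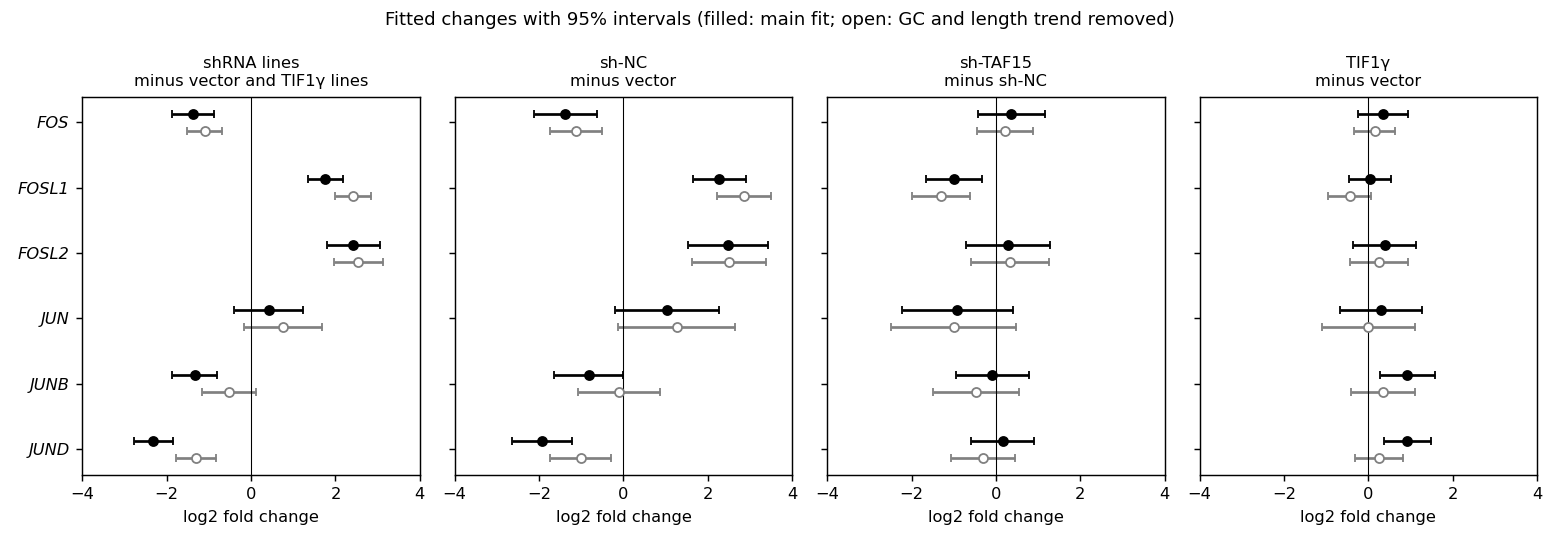
Log2 fold changes of the 6 fitted AP-1 genes with 95% intervals in 4 comparisons, from the fit as scaled (filled) and with the GC and length trend removed (open). FOSL1 and FOSL2 lie right of 0 and JUND and FOS left of 0 in both panels that set shRNA libraries against vector libraries. In the sh-TAF15 panel FOSL1 lies at −0.99, and in the TIF1γ panel JUNB and JUND lie at 0.92 in the fit as scaled.

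The control lines were compared on their own, with the 1 sh-NC library assumed to vary like the other groups. FOSL1 (log2 fold change 2.27, SE 0.29) and FOSL2 (2.47, SE 0.44) were called higher in sh-NC than in vector, with limma adjusted p values of 0.00026 and 0.00318. FOS (−1.38, SE 0.35) and JUND (−1.93, SE 0.33) were called lower, with limma adjusted p values of 0.0218 and 0.00193. That makes 4 of 6 members, where 11% of all genes were called, 3.78% higher and 7.21% lower. JUNB (−0.83, SE 0.38) and JUN (1.03, SE 0.56) had limma adjusted p values of 0.173 and 0.256. With the GC and length trend removed, which called 10.6% of all genes, JUND was no longer called (−1.02, limma adjusted p = 0.0771), while FOSL1 had 2.86, FOSL2 2.50 and FOS −1.13, with limma adjusted p values of 0.00113, 0.00643 and 0.0366. FOS was not called with the replicate number as a block (−1.46, limma adjusted p = 0.0656), and its value was −2.21 with a pseudocount of 0.1. This comparison and the one above use the same libraries and are not independent.

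TAF15 knockdown was compared with sh-NC to ask which AP-1 subunits differ when TAF15 is silenced. FOSL1 was at 72.1 and 70.7 FPKM in sh-TAF15, against 136 in sh-NC, a log2 fold change of −0.99 (SE 0.31, 95% interval −1.65 to −0.32). Both knockdown libraries were close to each other and below the control library. The unadjusted limma p was 0.00653 and the adjusted p over all genes 0.547, so FOSL1 did not pass. JUN was at 12.2 and 10.4 FPKM in sh-TAF15 against 21.2 in sh-NC (log2 fold change −0.91, 95% interval −2.22 to 0.40, limma adjusted p = 0.952). FOSL2, FOS and JUND were higher in both knockdown libraries than in the control, with log2 fold changes of 0.28 (SE 0.46), 0.36 (SE 0.37) and 0.17 (SE 0.35). The FOS value was 0.72 with a pseudocount of 0.1. JUNB had −0.09 (SE 0.40), with 1 knockdown library on each side of sh-NC. Over all genes 35.3% had both knockdown libraries above the control and 37.8% had both below. The adjusted p values of these 4 members ran from 0.959 to 0.989. None of the 6 members was called by limma, 1 had an unadjusted p under 0.05, and over all genes 0.0575% were called and 5.62% had an unadjusted p under 0.05. FOSL1 held 47.6 and 53.7% of the FOS family sum in the knockdown libraries and 71.5% in the control, and FOSL2 51.6 and 45.1% against 28.1%. With 1 control library these shares have no replicate check.

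With the GC and length trend removed, the FOSL1 value was −1.31 (SE 0.30, limma adjusted p = 0.309) and that of JUND −0.30 (limma adjusted p = 0.909), with its sign turned. Leaving out either sh-TAF15 library kept FOSL1 between −1.03 and −0.94.

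TIF1γ overexpression was compared with vector to ask which AP-1 subunits differ with more TIF1γ. JUND was at 167 and 162 FPKM in TIF1γ against 60.5, 91.2 and 97.9 in vector, and JUNB at 93.0 and 108 against 39.7, 41.0 and 74.2. Both genes had a log2 fold change of 0.92 (SE 0.26 for JUND and 0.30 for JUNB), with no overlap between groups. Their unadjusted limma p values were 0.00325 and 0.00844 and the adjusted p was 0.2 for each, so neither was called. FOS was at 4.62 and 3.93 FPKM in TIF1γ against 2.23, 3.02 and 3.77 in vector (log2 fold change 0.35, SE 0.28, limma adjusted p = 0.453), again without overlap. FOSL2 (0.38, SE 0.34), JUN (0.30, SE 0.44) and FOSL1 (0.04, SE 0.23) overlapped between groups, with limma adjusted p values of 0.515, 0.698 and 0.94.

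All 6 fitted members lay above 0, with a median log2 fold change of 0.37 against 0.017 over all genes. None was called by limma and 2 had an unadjusted p under 0.05, where 0.0216% of all genes were called and 19.9% had an unadjusted p under 0.05. Among all genes 17.3% had both TIF1γ libraries above the 3 vector libraries and 19.3% had both below. Over protein-coding genes, fold changes in this comparison rose with GC content (Spearman correlation 0.778), and over the 462 above 65% GC the median log2 fold change was 0.54. With the trend against GC and length removed, JUND had 0.25 (SE 0.25), JUNB 0.34 (SE 0.33) and FOSL1 −0.44 (SE 0.22), with limma adjusted p values of 0.783, 0.781 and 0.617. JUN had −0.0021 in that fit, so not all members lay above 0 there, and the median of the members was 0.198. Vector replicate 3 had the highest JUNB, JUND, FOSL2 and JUN of the 3 vector libraries. Without it, JUNB was called at 1.23 (limma adjusted p = 0.043) in a fit that called 297 genes, against 3 with all libraries.

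The difference between both effects, TIF1γ minus vector less sh-TAF15 minus sh-NC, was fitted as its own contrast. FOSL1 had a difference of 1.02 (SE 0.38), JUNB 1.01 (SE 0.50), JUN 1.21 (SE 0.74), JUND 0.76 (SE 0.43), FOSL2 0.10 (SE 0.58) and FOS −0.01 (SE 0.46). Only FOSL1 of these 6 had an unadjusted limma p under 0.05 (0.0188), and every adjusted p was 1.0. Over all genes 0.0431% were called and 3.6% had an unadjusted p under 0.05. The FOSL1 difference rests on a lower value in sh-TAF15 and a value near 0 in TIF1γ.

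Genes with the most similar profiles over the 8 libraries were sought by the root mean square distance between log2 profiles, each centred on its own mean, among 10804 named genes averaging at least 2 FPKM. All 8 points share the split into shRNA lines and the rest, so they are not independent. For FOSL1 the nearest were SPARC (distance 0.18 log2 units), MAP3K14 (0.19) and IFI16 (0.21). MAP3K14, the NF-κB inducing kinase, had 29.6 and 29.7 FPKM in the sh-TAF15 libraries and 43.9 in sh-NC, against 11.1 and 7.14 in TIF1γ and 12.5, 12.2 and 7.71 in vector. For FOSL2 they were TGM2 (0.20), RASSF10 (0.21) and TNS4 (0.24). TGM2, tissue transglutaminase, had 305 and 254 FPKM in the sh-TAF15 libraries and 297 in sh-NC, against 58.5 and 60.1 in TIF1γ and 36.9, 29.2 and 80.3 in vector.

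For JUN the nearest were VEGFA (0.22), VLDLR (0.23) and SNHG1 (0.26). VEGFA, the angiogenic growth factor, was high in TIF1γ replicate 3 and sh-NC like JUN, at 20.3 and 18.3 FPKM in sh-TAF15, 26.8 in sh-NC, 11.1 and 24.1 in TIF1γ, and 10.4, 10.4 and 14.1 in vector. For JUND they were PTP4A3 (0.16), SLC45A1 (0.16) and INSL4 (0.17), for JUNB KANK3 (0.12), OSBPL5 (0.15) and PPM1M (0.15), and for FOS LRP5 (0.11), GARIN5A (0.11) and P4HTM (0.11). Between members, FOS and JUNB were closest (0.32), followed by JUND and JUNB (0.50) and JUND and FOS (0.51), and FOSL2 and JUND were farthest apart (2.31). FOSL1 and FOSL2 lay 0.75 apart. All these distances use scaled log2(FPKM + 1) values with no trend against GC content removed. The parts of the pseudocount and of base composition in them were not tested.

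Lists of genes around AP-1 were then counted in the same fit. Among all genes 20.4% were called higher between the lines and 21.1% lower, or 41.6% in all. The lists were chosen with earlier results of these data known, so their counts beside these shares are not an independent test. Of 32 listed AP-1 target genes 25 were tested, and between the shRNA lines and the vector and TIF1γ lines 11 were called higher and 4 lower (60% in all), with a median log2 fold change of 0.56. The cytokine IL6 had 6.67 and 11.3 FPKM in the sh-TAF15 libraries and 24.7 in sh-NC, against 0.645 and 0.737 in TIF1γ and 0.301, 0.226 and 0.674 in vector (log2 fold change 3.25, SE 0.24, limma adjusted p = 6.27e-07). The related cytokine IL11 (3.08) and the EGF receptor ligands TGFA (1.91) and HBEGF (1.54) were called higher too. So were the sphingosine kinase SPHK1 (1.79), the receptor kinase AXL (1.48), the integrin subunit ITGA2 (1.55) and cyclin D1, CCND1 (1.01), with adjusted p values from 1.12e-06 to 0.00171. The 4 called lower were the matrix metalloproteinase MMP7 (−4.96), the chemokine CXCL8 (−2.86), the EGF receptor ligand AREG (−1.92) and the haem oxygenase HMOX1 (−1.42). MMP7 had 4.60 and 5.37 FPKM in the sh-TAF15 libraries and 2.79 in sh-NC, against 99.3 and 149 in TIF1γ and 138, 153 and 143 in vector. Target genes thus moved in both directions between the lines.

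Between sh-NC and vector, 10 of the 25 target genes were called higher and 4 lower, with a median log2 fold change of 0.725, where 3.78% and 7.21% of all genes were called. In sh-TAF15 against sh-NC none of the 25 was called by limma, 5 had an unadjusted p under 0.05, all lower (5.62% of all genes in either direction), and the median was −0.425 against −0.003 over all genes. The lowest p values included those of the ERK phosphatase DUSP5 (log2 fold change −1.58, SE 0.32) and IL6 (−1.46, SE 0.39), with limma adjusted p values of 0.126 and 0.319. In TIF1γ against vector none was called by limma, 1 had an unadjusted p under 0.05 (19.9% of all genes), and the median was −0.045.

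Immediate early genes outside the FOS and JUN families gave 6 calls higher and 7 lower of 20 tested between the lines, with a median log2 fold change of −0.37. With the GC and length trend removed 7 were called higher and 5 lower, and the median turned to 0.098. Of all 13907 genes, 1974 were called higher and 2238 lower in that fit, 30.3% in all. DUSP1, a MAP kinase phosphatase, had 271 and 320 FPKM in the sh-TAF15 libraries and 246 in sh-NC, against 85.1 and 116 in TIF1γ and 65.7, 65.8 and 89.4 in vector (log2 fold change 1.49, limma adjusted p = 0.000272). The matricellular genes CCN1 (0.93) and CCN2 (1.10) and the antiproliferative BTG2 (1.08) were higher as well. BTG1 (−1.85), IER3 (−1.33), NR4A1 (−1.40), KLF4 (−1.49) and IER2 (−1.03) were called lower, as FOS and JUNB were. Among dimer partners and other bZIP proteins, 1 of 22 was called higher and 8 lower, 40.9% in all and so near the share of all genes, with a median of −0.515. With the GC and length trend removed 0 were called higher and 6 lower by limma, where 30.3% of all genes were called, with a median of −0.298. CEBPD (−2.45), CEBPB (−2.17), the small MAF protein MAFK (−1.37), BATF3 (−1.17) and the AP-1 repressor JDP2 (−0.95) were among those lower, and ATF1 (0.95) was the one higher, which was not called with the trend removed (0.36, limma adjusted p = 0.116).

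Upstream of AP-1, 5 of 25 MAP kinase pathway genes were called higher and 4 lower, 36% in all and so below the share of all genes, with a median of 0.32. The p38 kinase kinase MAP2K6 had 1.06 and the TGF-β activated kinase MAP3K7 0.99, while MAPK12 had −1.05 and MAP2K2 −0.94. With the GC and length trend removed these had 0.30, 0.30, −0.44 and −0.38, and none of them was called. The 2 of the 25 called in that fit, where 30.3% of all genes were called, were MAP2K1 (0.50) and MAP2K5 (−0.74). Of 20 factors that act on FOS and JUN promoters, 7 were called higher and 0 lower by limma at the adjusted threshold. That is 35% in all and again below the share of all genes. At an unadjusted limma p under 0.05, 9 were higher and 1 lower. Among all 13907 genes, 7144 had such a p in either direction. The median of the 20 factors was 0.524, and 0.125 with the GC and length trend removed. The ETS factor ELK3, a partner of SRF, had 16.0 and 14.2 FPKM in the sh-TAF15 libraries and 31.5 in sh-NC, against 3.85 and 6.54 in TIF1γ and 8.66, 7.70 and 7.52 in vector. TEAD1 (1.74) and its coactivators WWTR1 (0.91) and YAP1 (0.65) were also called higher. With the trend removed WWTR1 had 0.29 and YAP1 0.15, and neither was called (limma adjusted p = 0.363 and 0.473). Of 20 genes for turnover or inhibition of FOS and JUN proteins, 6 were called higher, with the ubiquitin hydrolase UCHL3 at 0.93, and 1 lower, TRIB1 at −0.78, also 35% in all, with a median of 0.262. CREB1, ATF2, SRF and TRIB1 each stand in more than 1 list. In these 4 lists and the immediate early list, no gene was called by limma in sh-TAF15 against sh-NC or in TIF1γ against vector. At an unadjusted p under 0.05 the first of these comparisons had only CCN1 and ELK3 in these lists, both lower. In the second, where 19.9% of all genes had such a p, the dimer partners had 7 higher and 1 lower, the immediate early genes 3 higher, the MAP kinase genes 2 higher and 5 lower, the promoter factors 1 higher and 2 lower, and the turnover genes 6 lower. With the GC and length trend removed, the median there was 0.169 instead of 0.369 for the dimer partners and −0.069 instead of −0.349 for the turnover genes.

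**Figure D4:**
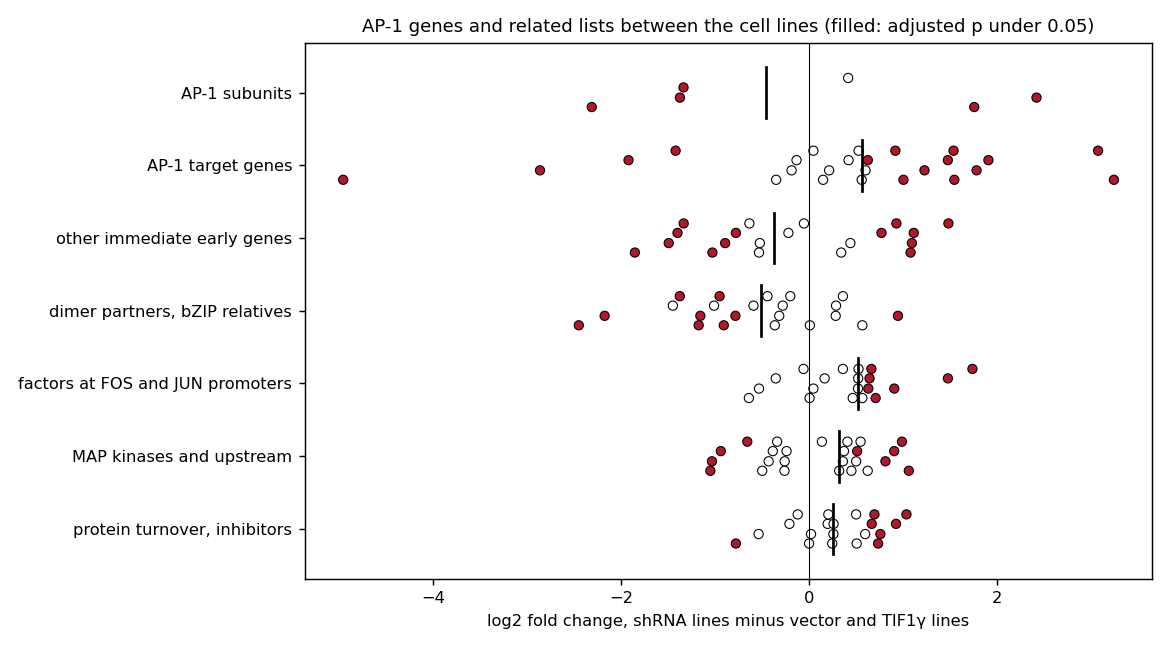
Log2 fold changes of the shRNA lines minus the vector and TIF1γ lines, with 1 point per tested gene, filled where the limma adjusted p was under 0.05, and a bar at each list's median. Factors at FOS and JUN promoters have called genes on the right of 0 only, and every other list has called genes on both sides of 0.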

How the data were processed

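Per the submitters' processing notes, the tools used upstream were cutadapt 1.9.1, HISAT2 2.0.1 and HTSeq 0.6.1, with GRCh37. The values deposited by the authors are FPKM, and how they were derived from the reads is not given in the sources used here. Libraries were grouped by their titles. The members and gene lists were chosen with earlier results of these data known.

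Identifiers were named from the supplied tables and GENCODE 29 (GRCh38), so the RefSeq promoter windows are the only coordinates given. A gene at exactly 0 in 1 library beside 100 FPKM or more in another was set aside (19 genes, no member). The filter of 1 FPKM in 2 libraries left 13907 genes, among them 6 of the 7 members. Scaling used a trimmed mean of log2 ratios, dropping 30% of the ratios and 5% of the abundances from either tail. All 4 groups were fitted together on log2(FPKM + 1) by limma 3.58.1 in R 4.3.3 with trend and robust moderation (4 residual and 9.57 prior degrees of freedom). Benjamini-Hochberg adjustment ran over every gene tested, and calls were made at 0.05. The procedure was tested on simulated data.

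Trends against the GC content and length of the longest transcript were removed per library by lowess. Fragment numbers were estimated per library from FPKM times length in genes with 1 transcript. The median of the values inside a preset window of low values was taken as 1 fragment. The window limits what the estimate can be, so the numbers are approximate and no counting interval is given. Named are the members, TRIM33, examples from the list genes called (or the 3 with the lowest p) and the 3 nearest profiles of each member whose log2 range exceeded 1. Some list genes are counted but not reported by name here. Alternatives changed the pseudocount, filter, scaling, trend removal, replicate block, groups fitted, moderation and genes set aside, and left out each library.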

Additional observations from a re-analysis of the deposited data

Results flagged for a closer look

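FOSB values differed in opposite directions in the TIF1γ and sh-TAF15 libraries. Its mean in TIF1γ minus its mean in vector was −0.22 FPKM, and its mean in sh-TAF15 minus the sh-NC value was 0.194 FPKM. Both TIF1γ libraries lay below all 3 vector libraries, as in 19.3% of all genes tested, and both sh-TAF15 libraries lay above the sh-NC library, as in 35.3%. The difference was not tested, as FOSB did not pass the filter, and its values rest on an estimated 5 to 24 fragments per library. FOSB signal cannot be told apart from reads of ERCC1 on the opposite strand.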

How the results depend on the processing

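The calls of FOSL1 and FOSL2 in the shRNA lines against the vector and TIF1γ lines, and in sh-NC against vector, held under every alternative run. Without the sh-NC library, no comparison that needs it has a value. Between the lines the number of members called was 5 and stayed at 4 to 6 (5 to 6 without 1 library). In sh-NC against vector it was 4, stayed at 4 without any 1 library, and was 3 with the strict filter, the trend removed or the block, and 2 with block and trend removal together. FOS could not be fitted under the filter of 1 FPKM in every library. In sh-TAF15 against sh-NC and in the difference of effects it was 0 throughout, and in TIF1γ against vector 0 to 1 without 1 library.

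Signs turned in few cases, and the cause was not tested. FOSL1 in TIF1γ against vector became −0.050 with quantile normalization, −0.44 with the trend removed and −0.29 with block and trend removal, and lay between −0.094 and 0.14 without 1 library. JUN there became −0.0021 and −0.0078 under the last 2 fits, and lay between −0.51 and 1.12 without 1 library. JUND in sh-TAF15 against sh-NC became −0.30 and −0.40 under those fits, and JUNB in sh-NC against vector 0.084 with both. JUNB in sh-TAF15 against sh-NC lay between −0.27 and 0.090 without 1 library, and JUN between the lines between −0.013 and 0.82. The FOS difference of effects became 0.0036 as deposited and 0.23 with quantile normalization (−0.16 to 0.14 without 1 library), and the FOSL2 difference −0.083 with the trend removed (−0.17 to 0.46).

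Counts of all genes called moved more. In TIF1γ against vector 3 became 5 with a pseudocount of 0.1, 6 without the filter, 0 with the strict filter, 0 with the trend removed, 44 with the replicate block, 0 with both, 5 with the genes at an exact 0 kept, and 1 (without TIF1γ replicate 2) to 297 (without vector replicate 3) without 1 library. In sh-TAF15 against sh-NC 8 became 21, 18, 12, 2, 52, 2 and 10 under the same settings in the same order, 4 with quantile normalization, 229 with only the sh libraries fitted, and 0 (without either sh-TAF15 library) to 52 (without vector replicate 2) without 1 library. The difference of effects had 6 calls, which became 3 without the filter, 0 with the strict filter, 3 with the trend removed, 30 with the block, 0 with both, and 1 (without either sh-TAF15 library) to 18 (without vector replicate 2) without 1 library. In sh-NC against vector 1529 became 1000 with the block and 379 with both (1216 to 1744 without 1 library), and between the lines 5782 became 2384 with both (4107 to 6387). As deposited, without scaling, the median over all genes moved to 0.16 in sh-NC against vector and 0.152 between the lines. The calls there were 899 higher and 782 lower (526 and 1003 with scaling), and 3841 and 2305 (2841 and 2941 with scaling).

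The replicate numbers were not taken as pairs. Deviations from the group mean correlated between −0.373 and 0.171 for same-numbered libraries and between −0.171 and 0.373 for the others. With 2 libraries each in TIF1γ and sh-TAF15, the deviations within these groups mirror each other. The correlations therefore cannot decide whether the numbers mark pairs. The share of FOSL1 and FOSL2 without 1 library lay between 62.4 and 70.2% in sh-TAF15, 10.8 and 12.8% in TIF1γ, and 16.3 and 21.0% in vector. Few libraries, 1 of them the only sh-NC control, limit every comparison, and at an estimated 5 to 24 fragments per library the FOSB values are imprecise.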
